A study of Mus musculus with 12 samples.

Results

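The 35 genes described here encode proteins that build ribosomes in the nucleolus, from RNA polymerase I subunits to the chaperones of the maturing particle. They were taken as a named list of symbols, chosen with earlier results of these data known, and grouped by role. All 35 were found in each of the 3 gene tables, which hold 17445 rows for LMPPs, 16821 for CD115-CDPs and 16896 for BM pDCs. Ribosome production starts with RNA polymerase I, which transcribes the ribosomal RNA precursor. Small nucleolar ribonucleoproteins (snoRNPs) then modify and help fold that precursor, and separate sets of assembly factors process it into the small and large subunits. The pathway is known as a large consumer of energy in growing cells, and its genes are known to be expressed at high levels in dividing progenitors and to respond to MYC, which binds the E-box motif CACGTG.

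RNA-seq libraries came from 3 mouse populations of the path to plasmacytoid dendritic cells (pDCs), the main producers of type I interferon. LMPPs are lymphoid-primed multipotent progenitors, sorted as the Flt3+CD34+ part of the LSK compartment, CD115-CDPs are common dendritic cell progenitors without the CSF1 receptor on their surface, and BM pDCs are pDCs of the bone marrow. Control mice were Hdac3 fl/fl, and HDAC3-KO mice were Hdac3 fl/fl with Rosa26-CreERT2, a tamoxifen-activated recombinase whose promoter is active in nearly all tissues, so that deletion was not limited to dendritic cells. Both genotypes received tamoxifen for 5 days by intraperitoneal injection and cells were taken 7 days later, with 2 libraries per genotype and population, 12 in all. The control mice carried no recombinase, so its effect and that of losing Hdac3 cannot be told apart. No source used here gives the ages of the mice or says that the 2 libraries of a group came from separate mice. The spread behind each p-value is therefore that between duplicate samples and may be technical.

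Levels are given as FPKM, which is scaled to gene length and library size. In LMPPs and CD115-CDPs a change is the difference of mean log2(FPKM + 0.5) between HDAC3-KO and control, tested with limma, and it understates the change of genes at low levels. In BM pDCs it is the log2 fold change from edgeR's quasi-likelihood test on counts, with TMM scaling. A gene rose or fell where the Benjamini-Hochberg adjusted p over all genes tested was under 0.05. RNA-seq of bulk cells reports shares of the RNA in a library, so fewer cells of a type and less RNA per cell cannot be told apart.

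The targeted gene Hdac3 was lower in the HDAC3-KO libraries of each population, by unequal amounts. It was at 56.48 and 66.35 FPKM in control and 16.87 and 9.87 in HDAC3-KO LMPPs. In CD115-CDPs it was at 58.19 and 39.56 against 12.06 and 0.93, and in BM pDCs at 38.91 and 37.8 against 15.6 and 15.85. Relative to controls, most was left in BM pDCs, and the part of this in the differences between populations was not tested. Counts over the genes tested summed to 18107869 to 18452373 in the BM pDC libraries, and the smallest steps between FPKM values correspond to about 12800000 to 19900000 reads in the LMPP and CD115-CDP libraries. HDAC3-KO library 2 of the CD115-CDPs stood apart, with 11288 genes above 0, where the rest of that table had 13684 to 15173, and a correlation of 0.871 with its replicate. Control library 1 of the LMPPs held erythroid transcripts, with 9260 FPKM summed over 6 erythroid genes against 100.8 to 273.7 in the other LMPP libraries. Siglech was at 1902.53 and 1951.06 FPKM in control BM pDCs, and at most 177.84 in the controls of the other populations. Some markers were less particular to a label. Flt3 was at 402.36 and 473.03 FPKM in control LMPPs and still at 352.17 and 310.25 in control CD115-CDPs. Csf1r, the gene of CD115, was at 139.27 and 95.32 FPKM in control CD115-CDPs, above its 14.91 and 25.61 in control LMPPs. Ly6a, an LMPP marker, was higher in control BM pDCs (234.59 and 280.08) than in control LMPPs (106.22 and 122.19).

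Promoters of 4 of the genes are shown, those of the largest increases in LMPPs described below (Utp4 and Rrp1b) and those of Nop2 and Imp4, which hold the E-box motif upstream of the start site. Sequences are from the RefSeq promoter table (build GRCm38.p6), from 130 bases before to 25 bases from the start site on, all on the plus strand. Capitals mark the motif CACGTG, which reads the same on both strands. The windows lie at chr8:106893510-106893664 for Utp4, chr6:125131753-125131907 for Nop2, chr1:34439699-34439853 for Imp4 and chr17:32036032-32036186 for Rrp1b.
Utp4: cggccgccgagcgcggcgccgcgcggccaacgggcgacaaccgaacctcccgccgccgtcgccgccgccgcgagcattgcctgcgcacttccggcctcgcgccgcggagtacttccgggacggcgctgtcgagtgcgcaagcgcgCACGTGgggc
Nop2: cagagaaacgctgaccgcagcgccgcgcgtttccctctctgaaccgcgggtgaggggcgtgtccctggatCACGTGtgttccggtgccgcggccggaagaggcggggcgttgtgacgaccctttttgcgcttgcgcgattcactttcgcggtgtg
Imp4: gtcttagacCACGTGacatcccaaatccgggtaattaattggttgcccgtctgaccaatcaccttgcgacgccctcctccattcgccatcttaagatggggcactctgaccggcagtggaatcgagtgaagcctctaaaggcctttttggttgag
Rrp1b: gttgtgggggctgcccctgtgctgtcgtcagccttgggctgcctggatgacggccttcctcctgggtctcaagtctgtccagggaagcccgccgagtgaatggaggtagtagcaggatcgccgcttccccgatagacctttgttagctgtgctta

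Of Utp4 and Rrp1b, only the Utp4 window holds the motif, at position 16 counted from the start site as position 1. The motif lay 60 bases before the start site in Nop2 and 121 bases before it in Imp4. Over the table's windows of 250 bases before to 50 bases from the start site, 6 of the 31 genes with an entry held the motif (19.4%), namely Nop2, Utp4, Imp4, Pes1, Utp20 and Wdr43. Among 114 other ribosome biogenesis genes, 94 had an entry and 17 of these held it (18.1%), against 8.91% of 17492 protein-coding genes with an entry. Of the members that rose in LMPPs, 3 of 15 with an entry held it, and of the other members 3 of 16. These counts are too small to compare the groups. Most members without a call were also higher, as 30 of all 35 had both HDAC3-KO libraries above both controls in LMPPs. A match describes these letters only and is not a measured binding site.

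Control levels were highest in LMPPs, lower in CD115-CDPs and lowest in BM pDCs for 34 of the 35 genes. Summed over the list, the control libraries held 3510 and 2950 FPKM in LMPPs, 2070 and 2241 in CD115-CDPs, and 1118 and 1172 in BM pDCs. LMPPs were thus highest and BM pDCs lowest, and no library of one population overlapped another. The median gene was at 0.682 of its LMPP level in CD115-CDPs and at 0.323 of it in BM pDCs. Over 11340 genes measured in all 3 tables, the median log2 difference was 0.0 for CD115-CDPs against LMPPs and -0.36 for BM pDCs against LMPPs, beside -0.55 and -1.63 for the members. With every library rescaled to the same FPKM sum, the members' medians were -0.43 and -1.30 and those of all genes 0.11 and -0.04, with 3 members higher in CD115-CDPs than in LMPPs and 2 higher in BM pDCs than in LMPPs. The 3 tables were normalized separately, so these are descriptions with no test, and sort, RNA handling and table cannot be told apart here.

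**Figure D1:**
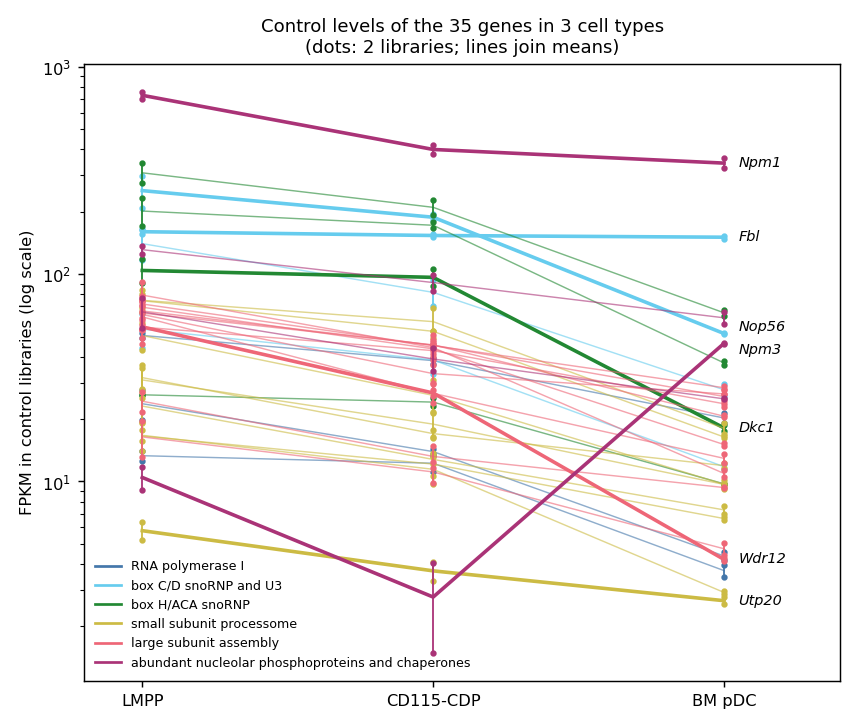
FPKM of the 35 genes in the control libraries of LMPPs, CD115-CDPs and BM pDCs on a log axis, with dots for the 2 libraries, lines joining their means and colours for roles. Most lines descend to the right, from 13.25-fold for Wdr12 between LMPPs and BM pDCs to nearly level for Fbl, and Npm3 turns upward to 46.54 and 46.29 FPKM in BM pDCs.

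By role, RNA polymerase I genes were a median 3.59 times higher in LMPPs than in BM pDCs, box C/D snoRNP genes 4.75 times and box H/ACA snoRNP genes 5.07 times. The medians were 3.19 times for the 9 small subunit processome genes, 3.15 for the 11 large subunit genes and 3.19 over all members. For the 4 nucleolar phosphoproteins and chaperones (Ncl, Npm1, Npm3 and Nolc1) the median was 2.13. These role medians come from 3 to 11 genes each and were not tested. Single genes' ranges overlapped between all roles except box H/ACA and the phosphoproteins and chaperones, at 2.69 to 5.75 and 0.225 to 2.63 times. Nop56 and Nop58, the paired core proteins of box C/D snoRNPs, were 4.89 and 5.07 times higher in LMPPs than in BM pDCs. Fibrillarin (Fbl), the methyltransferase of the same particle, was nearly level, at 164.45 and 156.34 FPKM in LMPPs, 151.9 and 155.68 in CD115-CDPs and 153.28 and 148.58 in BM pDCs. The CD115-CDP and BM pDC values of Fbl overlap. RefSeq names 1 pseudogene of Fbl whose reads the counting could have split from the gene.

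Most of the separations were wider than the spread between the libraries. For 29 of the 34 genes in the common order, the libraries of neighbouring populations did not overlap at either step, a pattern held by 21.5% of the 11340 genes. LMPP and CD115-CDP libraries overlapped for Polr1a, Dkc1, Nhp2 and Wdr43, and only Fbl overlapped at the lower step. Wdr12, which forms the PeBoW complex with Bop1 and Pes1 in large subunit maturation, had the greatest ratio, with 65.24 and 46.18 FPKM in LMPPs, 29.67 and 23.79 in CD115-CDPs and 4.26 and 4.15 in BM pDCs. The difference was smaller in its partners, Pes1 being 2.54 times and Bop1 2.34 times higher in LMPPs than in BM pDCs. The ratio of Wdr12 to Pes1 was 0.891 and 0.655 in the LMPP controls, 0.619 and 0.559 in the CD115-CDP controls and 0.153 and 0.144 in the BM pDC controls, so Wdr12 was lowest against its partner in pDCs.

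Npm3 alone ran against this order. It encodes a nucleoplasmin-family chaperone related to Npm1, nucleophosmin, which carries ribosomal proteins and shuttles between nucleolus and cytoplasm. Npm3 measured 11.81 and 9.11 FPKM in control LMPPs, 4.05 and 1.49 in CD115-CDPs and 46.54 and 46.29 in BM pDCs, 4.44 times the LMPP mean. Npm1, by contrast, was the most abundant member throughout, at 700.96 and 759.09 FPKM in LMPPs and 324.87 and 362.57 in BM pDCs. The ratio of Npm3 to Npm1 was 0.0168 and 0.012 in control LMPPs and 0.143 and 0.128 in control BM pDCs. RefSeq names 1 pseudogene of Npm3, so part of its reads may be misplaced.

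With loss of HDAC3, the summed level of the list was higher in both progenitors and about level in BM pDCs. Summed FPKM went from 3510 and 2950 in control LMPPs to 4894 and 5407 in HDAC3-KO LMPPs, and from 2070 and 2241 to 3756 and 4003 in CD115-CDPs. In BM pDCs the sums were 1118 and 1172 in controls and 1132 and 1114 in HDAC3-KO cells. Without Ncl, Npm1 and Fbl the BM pDC sums were 581.8 and 595.6 against 515.9 and 499, lower in HDAC3-KO cells on FPKM, which has no TMM scaling. In both progenitors the sums without these genes were still higher in HDAC3-KO cells. For the full list the genotypes were apart in both progenitors and overlapped in BM pDCs. The sums of HDAC3-KO CD115-CDPs exceeded those of LMPP controls, but these populations were normalized separately and this was not tested. The share of all FPKM taken by the list went from 0.563% and 0.494% to 0.794% and 0.765% in LMPPs and from 0.363% and 0.405% to 0.65% and 0.733% in CD115-CDPs.

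**Figure D2:**
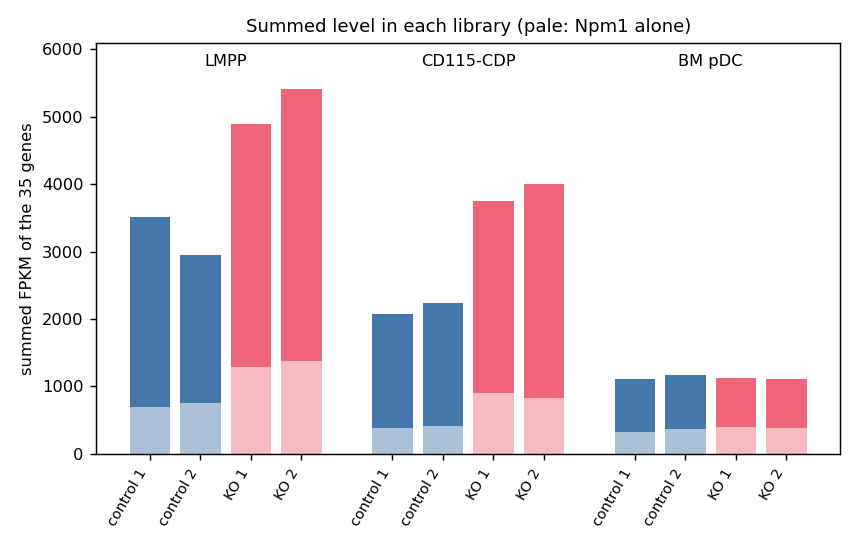
Summed FPKM of the 35 genes in each of the 12 libraries, with Npm1 alone as the pale lower part of each bar, blue for control and red for HDAC3-KO. Bars of HDAC3-KO progenitors, 3756 to 5407 FPKM, stand above the controls of their population, 2070 to 3510, and the 4 BM pDC bars lie between 1114 and 1172.

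In LMPPs, 17 of the 35 members rose and 0 fell (limma, adjusted p under 0.05), with 18 without a call. Of 11146 genes tested, 480 rose (4.31%) and 2096 fell (18.8%). Because the list was chosen with earlier results of these data known, such contrasts with all genes describe it and are not independent support. The members' median log2 change was 0.54 beside -0.23 over all genes. Both HDAC3-KO libraries lay above both controls for 30 members and below them for 1, where this held for 17.6% and 48.2% of all genes tested. No members fell at an unadjusted p under 0.05, and 23 were higher. With libraries rescaled to the same sum, by their median ratio or by quantiles, the median of all genes was -0.34, -0.04 and 0.03 and that of the members 0.43, 0.75 and 0.56, above all genes each time. Without control library 2 only 3 members rose, namely Rrp1b, Utp4 and Nolc1, and the members' median was 0.32.

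**Figure D3:**
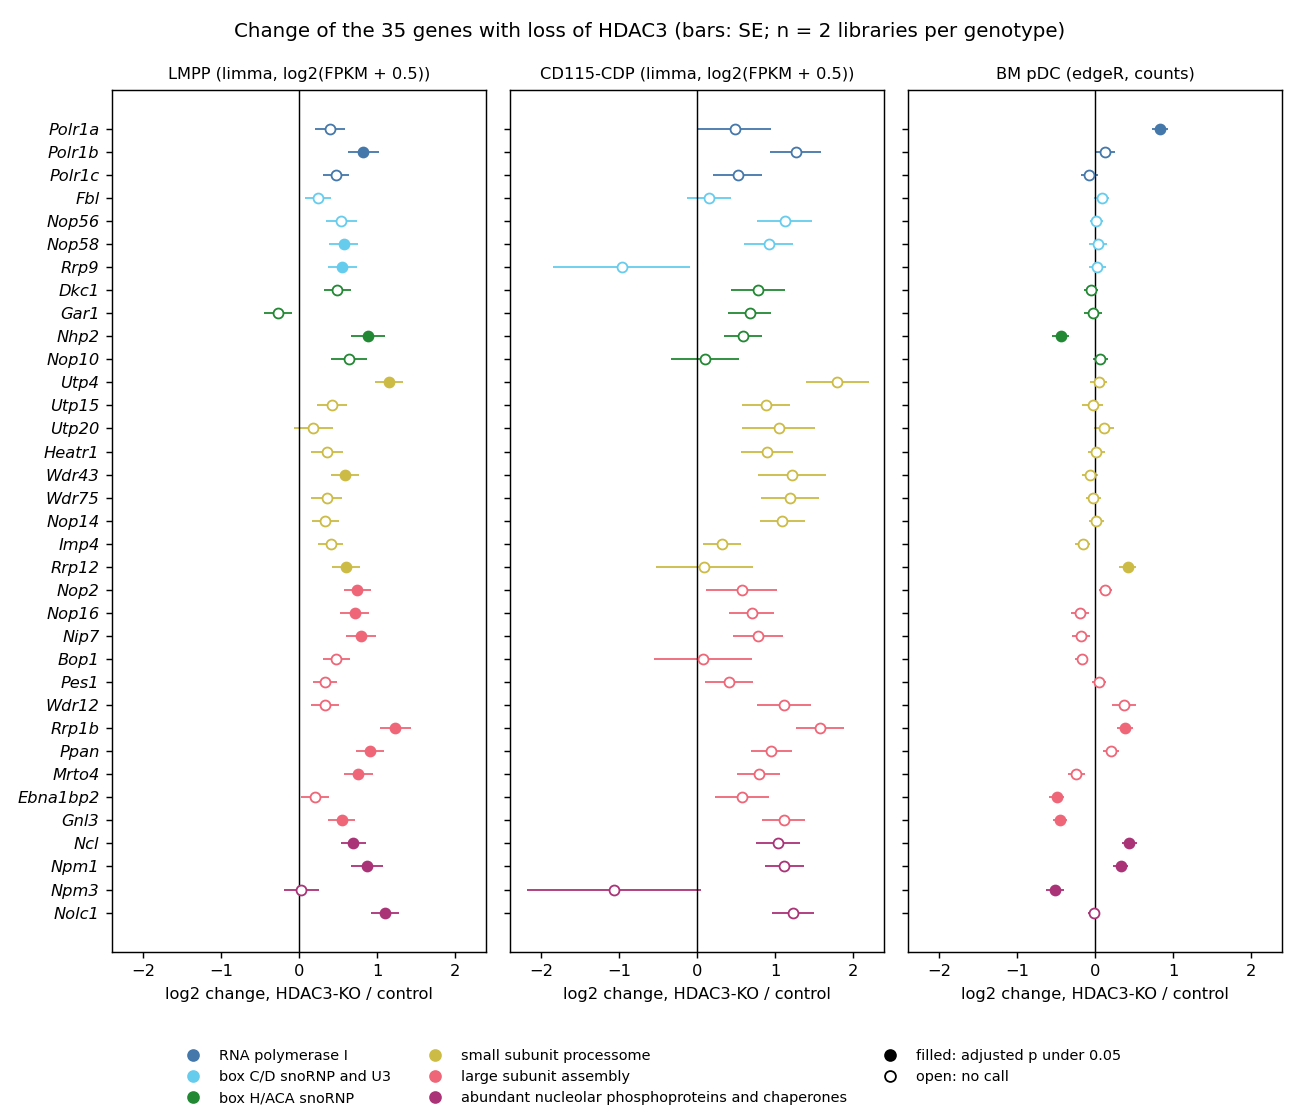
Change of each of the 35 genes between HDAC3-KO and control, with bars for the SE from the model, for LMPPs, CD115-CDPs and BM pDCs; filled points passed an adjusted p under 0.05 and colours give the role. Nearly all points lie right of 0 in both progenitors, 17 of them filled in LMPPs and 0 in CD115-CDPs, while BM pDC points scatter around 0 with 5 filled to the right and 4 to the left.

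The 3 largest increases in LMPPs belonged to different steps of the pathway. Rrp1b, a nucleolar protein of large subunit processing, measured 19.63 and 13.19 FPKM in controls and 38.78 and 38.37 in HDAC3-KO cells (log2 change 1.24, SE 0.20; limma, adjusted p = 0.00088). Utp4, a protein of the complex that joins the nascent ribosomal RNA early in small subunit assembly, went from 57.96 and 43.29 to 115.4 and 108.67 FPKM (1.15, SE 0.17; adjusted p = 0.00052). Nolc1, a phosphoprotein that ferries snoRNPs between nucleolus and Cajal body, went from 76.51 and 55.21 to 146.16 and 134.51 FPKM (1.10, SE 0.18; adjusted p = 0.00088). Genotypes were well apart in each, though control library 1 lay above control library 2 in all 3. Utp4 was called in each of 15 alternative analyses, Rrp1b and Nolc1 in 14.

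Among the RNA polymerase I genes, the catalytic-core subunit gene Polr1b rose in LMPPs from 27.73 and 19.72 to 46.07 and 37.84 FPKM (log2 change 0.82, SE 0.20; adjusted p = 0.0089). Polr1a, the largest subunit, was at 14.03 and 12.61 in controls and 18.17 and 17.02 in HDAC3-KO cells and had no call (0.39, adjusted p = 0.15), nor had Polr1c (0.47, adjusted p = 0.053), a subunit shared with RNA polymerase III. All 3 had both HDAC3-KO libraries above both controls.

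Among snoRNP genes the picture was mixed. Nop58 rose from 163.79 and 117.19 to 220.84 and 191.65 FPKM (log2 change 0.57, SE 0.19; adjusted p = 0.040) and Rrp9, the U3-specific protein, by 0.55 (adjusted p = 0.046). Nop56 measured 298.2 and 208.25 FPKM in controls and 370.82 and 355.54 in HDAC3-KO LMPPs and missed the threshold at a similar size (0.54, adjusted p = 0.057). Its ratio to Nop58 stayed between 1.68 and 1.86 in the 4 LMPP libraries, so these partners moved side by side. Of the H/ACA proteins, which guide pseudouridylation, Nhp2 rose from 233.36 and 170.16 to 295.25 and 456.8 FPKM (0.88, SE 0.22; adjusted p = 0.011). Dyskerin (Dkc1), the pseudouridine synthase, measured 118.06 and 90.48 against 152.48 and 138.24 FPKM without a call (0.49, adjusted p = 0.055). Gar1 was the exception of the whole list, at 26.18 and 26.22 FPKM in controls and 19.46 and 23.87 in HDAC3-KO LMPPs (-0.28, adjusted p = 0.28).

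Large subunit factors and the group of nucleolar phosphoproteins and chaperones held most of the calls. Of 11 large subunit genes 7 rose, with a median change of 0.71. Of the 4 phosphoproteins and chaperones 3 rose, beside 48.6% of all members. Both HDAC3-KO libraries lay above both controls for 10 of the 11 and 3 of the 4, beside 85.7% of all members. Differences between roles were not tested. Ppan rose by 0.91, Nip7 by 0.79, Mrto4 by 0.76, Nop2 by 0.75, Nop16 by 0.71 and Gnl3, the GTPase nucleostemin of stem and progenitor cells, by 0.54 on the log2 scale. RefSeq names 2 pseudogenes of Mrto4. Npm1 rose from 700.96 and 759.09 to 1288.75 and 1382.66 FPKM (0.87, SE 0.21; adjusted p = 0.0094). Nucleolin (Ncl), which binds nascent ribosomal RNA, rose from 137.6 and 125.23 to 218.57 and 207.37 (0.70, SE 0.16; adjusted p = 0.0079). The proportion of the pair differed little, with Ncl to Npm1 at 0.196 and 0.165 in controls and 0.17 and 0.15 in HDAC3-KO cells. Npm3 overlapped between genotypes, at 11.81 and 9.11 against 9.25 and 12.13 FPKM.

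The PeBoW genes had values above the controls without a call. Pes1 measured 73.19 and 70.51 FPKM in controls and 89.11 and 91.62 in HDAC3-KO LMPPs (0.33, adjusted p = 0.13), Bop1 61.72 and 49.46 against 75.13 and 79.27 (0.48, adjusted p = 0.053), and Wdr12 65.24 and 46.18 against 70.39 and 67.7 (0.33, adjusted p = 0.20). Each of the 3 had both HDAC3-KO libraries above both controls. Of the 9 small subunit processome genes, Utp4, Wdr43 and Rrp12 rose, while Utp15, Wdr75, Nop14 and Imp4 lay above both controls without a call. The large scaffold proteins of that group overlapped between genotypes, Heatr1 at 19.14 and 14.01 against 24.05 and 18.53 FPKM and Utp20 at 5.21 and 6.37 against 7.29 and 5.99.

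Expression of other cell types' genes also differed between the LMPP genotypes. Summed FPKM of 7 granulocyte genes was 2716 and 3031 in controls and 4630 and 5489 in HDAC3-KO LMPPs. The list did not move one way, as 2 of the 7 rose and 3 fell, with a median log2 change of 0.06. Of 12 proliferation genes 1 rose and 0 fell, with 10 above both controls. Their part in the change of the ribosome biogenesis genes was not tested. Without control library 1, which held the erythroid transcripts, 15 members rose, and their median was 0.76.

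In CD115-CDPs the differences were larger by their median but did not pass the test. Of the 35 members 0 were called, as were 0.0% of 10832 genes in either direction, 0.0% up and 0.0% down, by limma. At an unadjusted p under 0.05, 17 members were higher and 0 lower, against 3.06% and 5.95% of all genes tested. Both HDAC3-KO libraries lay above both controls for 27 members and below them for 0, where this held for 15.2% and 28.4% of all genes. The members' median was 0.79 beside -0.16 over all genes. The 2 HDAC3-KO libraries differed greatly. Without library 2, which stood apart, 21 members rose and 0 fell, and without library 1, 25 rose and 3 fell, in fits where the single HDAC3-KO library is taken to vary as the controls do. Calls over all genes appeared in these fits too, with 5.28% rising and 7.6% falling without library 2, and 15.1% and 32.0% without library 1.

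Utp4, Rrp1b, Polr1b and Nolc1 had the largest positive differences, and all 4 had risen in LMPPs. Utp4 measured 21.35 and 30.73 FPKM in controls and 65.87 and 123.85 in HDAC3-KO CD115-CDPs (log2 difference 1.80, SE 0.40; adjusted p = 0.37). Rrp1b measured 9.81 and 12.42 against 33.98 and 33.78 FPKM (1.57, SE 0.31; adjusted p = 0.32). Polr1b measured 13.55 and 14.32 against 40.48 and 28.72 (1.26, SE 0.33; adjusted p = 0.42), and Nolc1 33.99 and 44.01 against 88.59 and 94.06 (1.23, SE 0.27; adjusted p = 0.37). Each had non-overlapping genotypes, and the 2 HDAC3-KO libraries nearly coincided for Rrp1b and Nolc1. Of the 17 members that rose in LMPPs, 14 had both HDAC3-KO libraries above both controls here. So had 27 of all 35 members (77.1%), so a call in LMPPs did little to separate them, beside 15.2% of all genes tested.

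The abundant nucleolar genes Npm1 and Ncl, the large subunit gene Gnl3 and the snoRNP gene Nop56 did not overlap between genotypes either. Npm1 measured 381.77 and 418.33 FPKM in control and 905.27 and 832.92 in HDAC3-KO CD115-CDPs, and Ncl 82.89 and 99.46 against 157.32 and 221.46. Gnl3 measured 29.98 and 36.32 against 64.55 and 79.44, and Nop56 181.9 and 194.89 against 303.55 and 553.47. After loss of HDAC3 all 4 lay within or above the range of the LMPP controls, which were normalized separately, so this is a description with no test. Nop58 measured 70.08 and 93.42 against 125.49 and 186.25, Dkc1 87.65 and 105.52 against 124.25 and 218.34, and Wdr12 29.67 and 23.79 against 45.7 and 73.45. Heatr1 and Utp20, which overlapped between genotypes in LMPPs, did not overlap here, at 10.6 and 13.67 against 20.53 and 25.37 FPKM and 3.3 and 4.11 against 6.35 and 10.36.

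Genotypes overlapped for 8 members, and in each of these HDAC3-KO library 2, which stood apart, lay below HDAC3-KO library 1. In Rrp9 it measured 7.07 FPKM against 33.05 to 50.94 in the other 3 libraries. Bop1 was at 38.62 and 46.97 FPKM in controls, 87.67 in HDAC3-KO library 1 and 22.85 in library 2, Rrp12 at 9.69 and 13.2 against 22.2 and 6.47, and Nop10 at 228.4 and 192.22 against 342.2 and 147.29. Npm3 was listed at 0 in library 2 beside 3.6 FPKM in library 1 and 4.05 and 1.49 in controls. Library 1 exceeded both controls for Rrp9, Bop1, Rrp12 and Nop10, library 2 fell short of both. Pes1 measured 47.94 and 42.56 against 74.07 and 48.6, just above. The granulocyte genes again summed higher, with 1475 and 1370 FPKM in controls and 3563 and 2535 in HDAC3-KO cells, with 4 of the 7 above both controls, 0 below and 0 called, and 8 pDC genes lower, 1988 and 1486 against 438.1 and 252.7. The part of either in these values was not tested.

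In BM pDCs, 5 of the 35 members rose and 4 fell (edgeR, adjusted p under 0.05). Of 12716 genes tested, 21.6% rose and 22.5% fell, beside 14.3% and 11.4% of the members. Their median log2 change was 0.01 and that of all genes -0.01. Both HDAC3-KO libraries lay above both controls for 8 members and below for 10, on the scaled counts, where all genes gave 36.4% and 38.5%. Without TMM scaling 2 rose and 9 fell, and by limma on FPKM 2 rose and 8 fell, with all genes' medians at -0.14 and -0.15. Leaving out control library 1 left 1 member rising and 1 falling, and leaving out control library 2 left 1 and 0.

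Polr1a, the largest subunit of RNA polymerase I, rose most. Its TMM-scaled CPM (counts relative to library size) were 21.42 and 18.89 in controls and 36.16 and 35.77 in HDAC3-KO BM pDCs (log2 change 0.83, SE 0.10; edgeR, adjusted p = 0.00081), and the call held in 13 of 13 alternatives. Polr1b and Polr1c overlapped between genotypes. The ratio of Polr1a to Polr1b in FPKM was 0.947 and 0.761 in control and 1.26 and 1.53 in HDAC3-KO BM pDCs, whereas it was 0.506 and 0.639 against 0.394 and 0.45 in LMPPs. In LMPPs only Polr1b of this pair was called, though both HDAC3-KO libraries lay above both controls for Polr1a as well. In BM pDCs only Polr1a was called, and the difference between populations was not tested.

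The other 4 genes that rose were among the 17 of 35 members that rose in LMPPs. So were 2 of the 4 that fell in BM pDCs. The share of all genes called in both populations was not counted. Ncl rose from 326.3 and 361.9 to 473.3 and 456.9 CPM (log2 change 0.43, SE 0.09; adjusted p = 0.0090) and Npm1 from 428.4 and 474.3 to 559.8 and 571.3 CPM (0.33, SE 0.09; adjusted p = 0.028). Rrp12, an export factor of both subunits, rose from 12.44 and 11.86 to 16.15 and 16.2 CPM (0.41, SE 0.11; adjusted p = 0.022), and Rrp1b from 19.8 and 18.79 to 24.87 and 25.49 (0.38, SE 0.10; adjusted p = 0.019). The genotypes of these 4 did not overlap, though Npm1, Rrp12 and Rrp1b had no call without TMM scaling or by limma on FPKM. No member was called in all 3 populations, since none was in CD115-CDPs.

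The 4 that fell were Npm3, Ebna1bp2, Gnl3 and Nhp2. Npm3 went from 37.41 and 36.9 to 23.25 and 28.57 CPM (log2 change -0.52, SE 0.12; adjusted p = 0.011). Ebna1bp2, a scaffold of early large subunit particles, went from 34.96 and 38.47 to 25.99 and 26.13 (-0.49, SE 0.10; adjusted p = 0.0059), and Gnl3 from 48.96 and 48.18 to 36.88 and 34.31 (-0.45, SE 0.09; adjusted p = 0.0063). Nhp2 went from 34.28 and 35.9 to 27.66 and 23.81 (-0.45, SE 0.11; adjusted p = 0.014). Gnl3 and Nhp2 had risen in LMPPs, a difference in direction between populations that was not tested. The other 26 members had no call. Nop56 was at 101.5 and 98.72 against 102.6 and 99.52 CPM, Nolc1 at 89.19 and 87.28 against 87.52 and 87.09, and Utp4 at 19.8 and 21.89 against 21.18 and 21.71, the latter pair having been among the strongest in LMPPs. Dkc1, Fbl, Nop58, Heatr1, Utp20 and Pes1 overlapped too, with Dkc1 at 47.13 and 50.38 against 47.67 and 46.1 CPM. Wdr12, at 8.99 and 8.61 against 12.74 and 9.93, lay above its controls without a call (0.37, adjusted p = 0.099), and Bop1, at 58.26 and 54.22 against 48.79 and 50.75, below them (-0.18, adjusted p = 0.14).

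**Figure D4:**
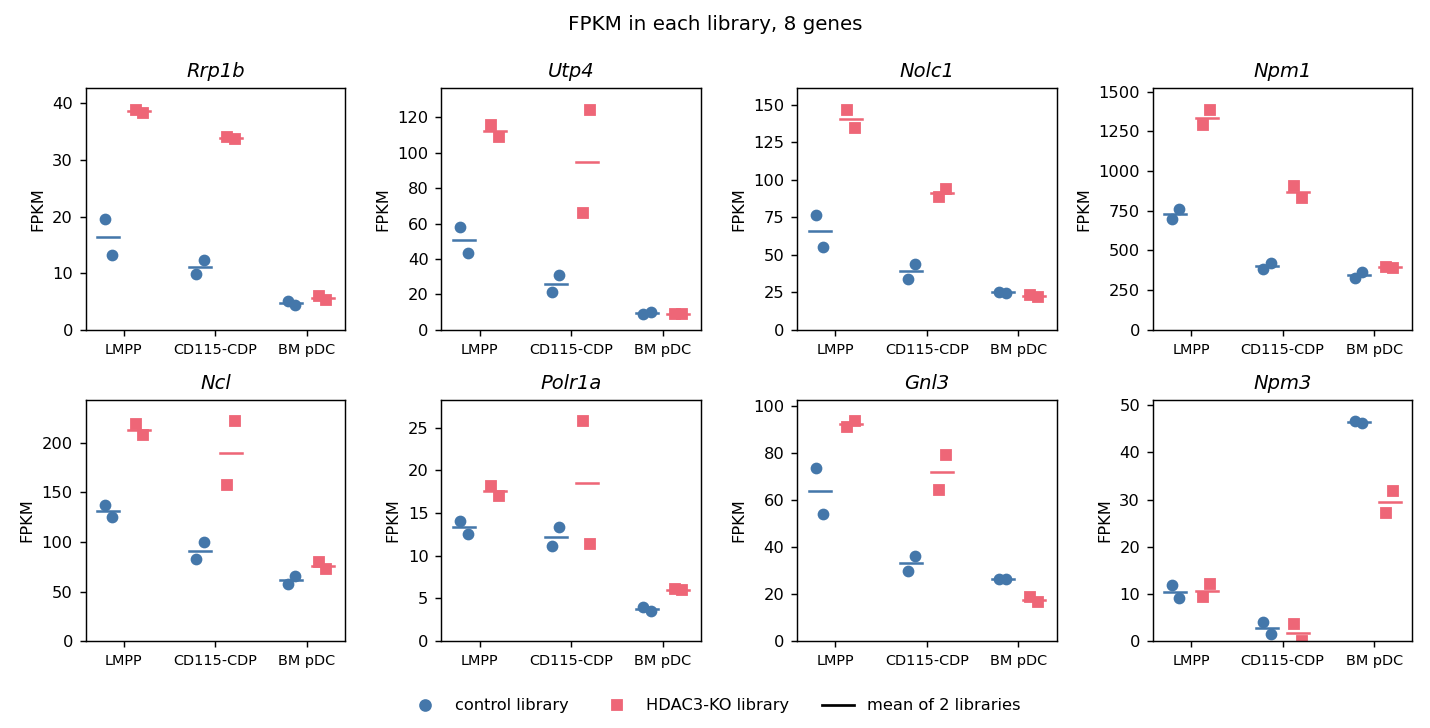
FPKM of 8 genes in each library of LMPPs, CD115-CDPs and BM pDCs, with blue circles for control, red squares for HDAC3-KO and a line at the mean of 2. HDAC3-KO squares stand above the control circles for Rrp1b, Utp4, Nolc1, Npm1, Ncl and Gnl3 in both progenitors, while in BM pDCs Gnl3 drops from 26.55 and 26.34 to 18.72 and 16.64 FPKM and Polr1a climbs from 3.95 and 3.48 to 6.11 and 5.95.

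HDAC3-KO BM pDCs also held less of the pDC genes and more of the proliferation genes. Of 8 pDC genes 7 fell and 0 rose, with sums of 8843 and 9366 FPKM in controls and 3959 and 3521 in HDAC3-KO cells. Of 12 proliferation genes 12 rose, with sums of 439.6 and 432.4 against 888.8 and 860.5 FPKM. In LMPPs, where the ribosome biogenesis genes rose, the same list summed to 2032 and 1919 against 2545 and 2378. In CD115-CDPs it was at 2352 and 2611 in controls and 2515 and 2257 in HDAC3-KO cells. The part of the proliferation genes in the members' levels was not tested.

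The rest of the pathway followed the members in LMPPs at a smaller size. This second list, too, was chosen with earlier results of these data known. Of 114 other biogenesis genes, 113 were tested in LMPPs and 25 rose while 0 fell, with a median of 0.26, where 4.31% of all genes rose and 18.8% fell. The 15 of 45 large subunit factors and 9 of 39 small subunit factors that rose made up nearly all of them, with Ruvbl2, an ATPase of snoRNP assembly, as the last. Wdr18, part of a large subunit release complex, rose most clearly, from 75.21 and 57.4 to 147 and 178.01 FPKM (1.29, SE 0.18; adjusted p = 0.00026). Noc4l rose by 0.77, Ruvbl2 by 0.89 and Ftsj3 by 0.83. Among the other genes of RNA polymerase I and rDNA transcription 0 of 12 were called, and of the RNA exosome, which trims ribosomal RNA, 0 of 10. Both HDAC3-KO libraries lay above both controls for 5 of these 12 and 7 of these 10, and below them for 0 and 1. Over all genes tested this held for 17.6% and 48.2%. The median changes of these 2 groups were 0.14 and 0.33. The lowest p among negative changes belonged to Zfp622 (-0.62, adjusted p = 0.067).

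In CD115-CDPs 0 of 113 passed, with a median of 0.37. The smallest p-values were those of Rsl1d1 (1.06, adjusted p = 0.40) and Wdr18, which was at 51.21 and 71.11 FPKM in controls and 126.2 and 210.62 in HDAC3-KO cells. In BM pDCs 9 of 114 rose and 15 fell, with a median of -0.05, fewer in each direction than the 21.6% and 22.5% of all genes. Znrd1, another RNA polymerase I subunit, rose there from 25.29 and 27.5 to 39.9 and 41.92 CPM (0.63, SE 0.10; adjusted p = 0.0019), beside Polr1a, and Krr1 rose by 0.60. Ubtf, the factor that keeps ribosomal DNA active, fell from 187.6 and 176 to 131 and 133 CPM (-0.46, SE 0.09; adjusted p = 0.0045). Rpf2, which helps dock a separate ribonucleoprotein on the forming large subunit, fell most, from 27.64 and 29.44 to 14.08 and 11.73 CPM (-1.14, SE 0.12; adjusted p = 0.00047). Of the 12 other genes of RNA polymerase I and rDNA transcription, 2 rose (16.7%) and 1 fell (8.3%) there. Both shares lay below those of all genes tested.

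The 3 populations shared no control libraries, though no source used here says that their cells came from separate mice. Changes and overlaps were read from FPKM in both progenitors and from TMM-scaled counts in BM pDCs. This choice matters, as the members' median in BM pDCs was 0.013 on scaled counts and -0.117 by limma on FPKM. The comparisons below mix these scales. Both HDAC3-KO libraries were above both controls in LMPPs and in CD115-CDPs for 23 of the 35 members, beside 6.41% of the 10023 genes tested in both. In all 3 populations this held for 5 members, beside 2.82% of the 9775 genes tested in each. Across the 35 genes the log2 changes correlated at r = 0.44 (rho 0.385) between LMPPs and CD115-CDPs at r = 0.187 (rho 0.176) between LMPPs and BM pDCs and at r = 0.236 (rho 0.206) between CD115-CDPs and BM pDCs. These values describe genes measured in the same few libraries, which are not independent replicates.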

How the data were processed

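RNA-seq of 12 samples was analysed, 2 per genotype in LMPPs, CD115-CDPs and BM pDCs, grouped by the sample labels. The members and gene lists were chosen with earlier results of these data known. Bowtie2, RSEM and mm10 are named in the processing notes of the submitters, per the labels, with no versions. The authors deposited FPKM per gene for LMPPs and CD115-CDPs and, for BM pDCs, expected counts, FPKM and TPM (TPM not used). Each table was normalized separately.

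For LMPPs and CD115-CDPs, log2(FPKM + 0.5) of genes reaching 1 FPKM in 2 or more of 4 libraries was fitted with limma 3.58.1 (eBayes with trend). Rounded expected counts were analysed with edgeR 4.0.16 (filterByExpr, TMM, glmQLFTest) in R 4.3.3, and its SE was taken from the F statistic. Tests were two-sided, Benjamini-Hochberg adjusted over all genes tested, and checked on simulated data. That check gave every gene the same noise level, so it does not show how the CD115-CDP fit performs at its wider spread. DESeq2 1.42.0 was an alternative. For BM pDCs, overlap between genotypes was read from TMM-scaled CPM. Genes were named by role, with the 3 largest rises and falls per population and up to 4 other pathway genes per direction by p. Depth in the FPKM tables was read from the steps between low values, with only 76 values for HDAC3-KO library 2 of the CD115-CDPs. Same-numbered libraries deviated with correlations of -0.10 in LMPPs, 0.24 in CD115-CDPs and -0.24 in BM pDCs.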

Additional observations from a re-analysis of the deposited data

Results flagged for a closer look

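For 9 members, every HDAC3-KO library lay above both controls in 1 population and below both in another, a difference between populations that was not tested. The same held for 27.7% of the 9775 genes tested in all 3 populations, close to the 25.7% of the members. In LMPPs and BM pDCs respectively, the log2 changes were 0.48 and -0.18 for Bop1, whose CD115-CDP libraries overlapped. In LMPPs, CD115-CDPs and BM pDCs they were 0.54, 1.11 and -0.45 for Gnl3, 0.40, 0.32 and -0.16 for Imp4, 0.76, 0.79 and -0.24 for Mrto4, 0.88, 0.58 and -0.45 for Nhp2, 0.79, 0.78 and -0.18 for Nip7, and 0.71, 0.70 and -0.20 for Nop16. For Ebna1bp2 they were 0.58 in CD115-CDPs and -0.49 in BM pDCs, with LMPP libraries that overlapped. Gar1 was below its controls in LMPPs (-0.28) and in BM pDCs (-0.03) and above them in CD115-CDPs (0.67). Of these BM pDC changes, those of Gnl3, Nhp2 and Ebna1bp2 passed the test. The BM pDC changes and overlaps are from TMM-scaled counts and those of the progenitors from FPKM.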

How the results depend on the processing

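With 2 libraries per group, calls rest on few samples. Rescaling LMPP libraries to the same sum gave 10 pathway genes that rose and 1 that fell, and rescaling by the median ratio gave 42 and a median of 0.75 over the members. Without trend 9 members and 7 pathway genes rose in LMPPs. Without a filter 1 and 2 rose, in a fit that also took in genes at lower values. The reason for this drop was not tested. In CD115-CDPs the members' median was 0.91 by median ratio and 0.93 by quantile normalization. In BM pDCs DESeq2 gave 3 members that rose and 8 pathway genes that fell. There limma on FPKM gave 2 and 8 members and 5 and 33 pathway genes that rose and fell (median -0.12), and counts without scaling 2 and 9 members and 5 and 30 pathway genes (median -0.12). In controls the members' sum in LMPPs over BM pDCs was 2.21 on the rescaled FPKM and 3.75 without Ncl, Npm1 and Fbl, against 2.82.

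Leaving out 1 library at a time gave 3 to 20 members that rose in LMPPs, 0 to 25 in CD115-CDPs and 1 to 6 in BM pDCs, and 0 to 0, 0 to 3 and 0 to 5 that fell. Their medians were 0.32 to 0.76, 0.72 to 0.94 and -0.02 to 0.02. Pathway genes that rose numbered 2 to 34, 0 to 48 and 3 to 18, and those that fell 0 to 2, 0 to 13 and 3 to 25. Bop1 in CD115-CDPs ranged from -0.88 without HDAC3-KO library 1 to 1.03 without library 2.

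The labels number the libraries but nothing says that a number pairs them. With the replicate number as a block, 18 members rose in LMPPs, 7 in CD115-CDPs (with 2 pathway genes) and 5 in BM pDCs, where 4 fell. With crossed numbers, an alternative added after seeing the data, 23 members and 40 pathway genes rose and 2 pathway genes fell in LMPPs, and 5 members rose and 4 fell in BM pDCs. Other settings left the members' counts within 1.5 times.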
